A study of Mus musculus with 6 samples.

Results

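The genes described here are the Dlx and Msx homeobox genes of the soft palate: Dlx1, Dlx2, Dlx3, Dlx5, Dlx6, Msx1 and Msx2, 7 of the 21938 genes measured. They were chosen by name, as patterning genes of the jaw and palate. The tissue, the muscular rear part of the palate, was taken from mouse embryos at E14.0 for RNA sequencing. The 3 control libraries (replicates 1, 2 and 3) came from embryos with floxed β-catenin alleles and no named Cre. The 3 mutant libraries (replicates 5, 6 and 7) carried the same floxed alleles together with Osr2-Cre, a recombinase expressed from the Osr2 locus, which is active in palatal mesenchyme. The labels describe the control strain and genotype elsewhere as wild type, so the floxed allele is known from the protocol alone.

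Dlx genes encode homeodomain transcription factors related to fly Distal-less. In the neural crest cells of the pharyngeal arches their nested expression gives the upper and lower jaw their identity: Dlx1 and Dlx2 are active along the whole arch, while Dlx5 and Dlx6 are restricted to its distal part, downstream of endothelin. Msx1 and Msx2 encode homeodomain repressors induced by BMP signals, and loss of Msx1 gives cleft palate and missing teeth. Canonical Wnt signalling, which needs β-catenin, is active in the same tissues, and the comparison asks whether the level of these genes differed when β-catenin was deleted with Osr2-Cre.

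None of the 7 genes differed between the groups by the test used. Their levels in mutants overlapped those in controls for every gene, and the estimated changes ran from -0.42 for Dlx2 to 0.28 for Dlx3 and for Msx2 on the log2 scale. For each of the 7, the spread between libraries of one group was above the median of the genes with a mean of at least 5 CPM. For Msx1 and Dlx6 it was wider than that of 99.5% and 99.4% of those genes, which were not matched for level. One control library, replicate 2, was the lowest control for all 7 genes.

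The part of each messenger that encodes the DNA-binding homeodomain shows how the genes are related. For 6 of the genes 51 bases of the coding exon are printed (codons 42 to 58 of the 60 in the homeobox, from the GENCODE vM21 transcript on GRCm38, 5′ to 3′). The capitals mark 4 codons, 48 to 51, which open the longer run of codons by which the homeobox was located in the transcript. The stretch is shown because it covers the helix that reads DNA.
Dlx1: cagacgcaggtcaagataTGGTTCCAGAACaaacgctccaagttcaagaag
Dlx2: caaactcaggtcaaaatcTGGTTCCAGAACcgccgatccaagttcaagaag
Dlx3: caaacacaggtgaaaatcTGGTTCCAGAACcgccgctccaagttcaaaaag
Dlx5: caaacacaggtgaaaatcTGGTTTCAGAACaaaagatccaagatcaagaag
Dlx6: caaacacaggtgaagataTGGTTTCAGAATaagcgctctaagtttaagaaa
Msx2: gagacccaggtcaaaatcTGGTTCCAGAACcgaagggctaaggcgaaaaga
Over all 180 bases of the homeobox, Msx1 and Msx2 were 82.2% identical, the 10 pairs of Dlx genes were between 66.1% and 81.7% identical, and the 10 pairs of a Dlx with an Msx gene were between 56.7% and 65% identical. Between whole transcripts the longest identical run was 10 to 44 bases, and the run of 44 bases was between Dlx6 and Msx2. The sources used here do not say how the authors' counting treated a read that matches more than 1 gene.

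The genes lie as linked pairs or alone (GENCODE vM21, GRCm38). Dlx1 (ENSMUSG00000041911.3) is at chr2:71528113-71533981 on the plus strand, and Dlx2 (ENSMUSG00000023391.8) faces it at chr2:71543408-71546754 on the minus strand, across a gap of 9426 bases. Dlx6 (ENSMUSG00000029754.13) is at chr6:6863334-6868568 on the plus strand, and Dlx5 (ENSMUSG00000029755.10) faces it at chr6:6877805-6882085 on the minus strand, across a gap of 9236 bases. Dlx3 (ENSMUSG00000001510.8) is at chr11:95120119-95125296 on the plus strand, where its partner is Dlx4. Msx1 (ENSMUSG00000048450.10) is at chr5:37820485-37824583 and Msx2 (ENSMUSG00000021469.9) at chr13:53466884-53473074, both on the minus strand.

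Values are levels in CPM: reads of a gene scaled to a common total of counted reads, and libraries held 10018605 to 15089287 counted reads. At these depths a count of 3 reads, the upper limit that a count of 0 allows, was 0.199 to 0.299 CPM. The labels do not say whether a library is 1 embryo or a pool, so p-values measure only the spread between these libraries. Ctnnb1, which encodes β-catenin, was at 698.5, 784.5 and 671.4 CPM in controls and at 584.6, 633.4 and 581.5 CPM in mutants, without overlap, a log2 change of -0.26 ± 0.10 (SE, limma adjusted p = 0.183). The sources used here do not name the exons deleted, and the tissue also holds cells without Cre. Osr2 itself fell by 1.47 ± 0.20 (SE) on the log2 scale, from 46.9 ± 11.2 to 16.1 ± 3.22 CPM (SD, n = 3 per group, limma adjusted p = 0.0285). Cre at the Osr2 locus was named for the mutants only. For Osr2, as for the 7 genes and all others compared, the part of that allele and the part of β-catenin deletion therefore cannot be told apart. Markers of neural crest mesenchyme were present in every library, at a summed 3448.8 to 4584.6 CPM in controls and 2538.9 to 3334.2 CPM in mutants. Of these 8 markers, 0 passed the test and 3 were lower at an unadjusted p below 0.05, beside 8.07% of all genes. Their median log2 change was -0.36. Muscle markers summed to 6691.6 to 14060.8 CPM in controls and 4429.2 to 5491.2 CPM in mutants. Of these 10 markers, 6 passed the test, all lower, and 10 were lower at an unadjusted p below 0.05. The count of 6 was 8 without control 2 and 0 on leaving out any other library. It was also 0 without a trend in the prior variance and with sex read from Xist as a covariate. The 7 erythroid markers summed to 1593.7 to 4725.1 CPM in controls and 774.3 to 1360.8 CPM in mutants, and 0 passed the test, while 7 were lower at an unadjusted p below 0.05. Xist was at 1188.0 CPM in control 3 and 2054.4 CPM in mutant 7 and at most 17.3 CPM in the other 4 libraries, 1 high library in each group.

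Of all 21938 genes, 105 (0.479%) passed an adjusted p of 0.05, and 4702 (21.4%) had an unadjusted p below 0.05, of which 2931 (13.4%) were higher and 1771 (8.07%) lower in mutants. The groups did not overlap for 6109 genes (27.8%). Leaving out control 1, control 3, mutant 5 or mutant 6 left 0 genes called (3806 to 4100 at an unadjusted p below 0.05), and leaving out mutant 7 left 2, neither of them Osr2. Without control 2 there were 452, Osr2 among them. Of the 7 Dlx and Msx genes, 0 passed the adjusted threshold by limma, 0 had an unadjusted p below 0.05, and 0 had groups that did not overlap. Their median log2 change was 0.14, beside 0.04 for all genes tested.

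**Figure D1:**
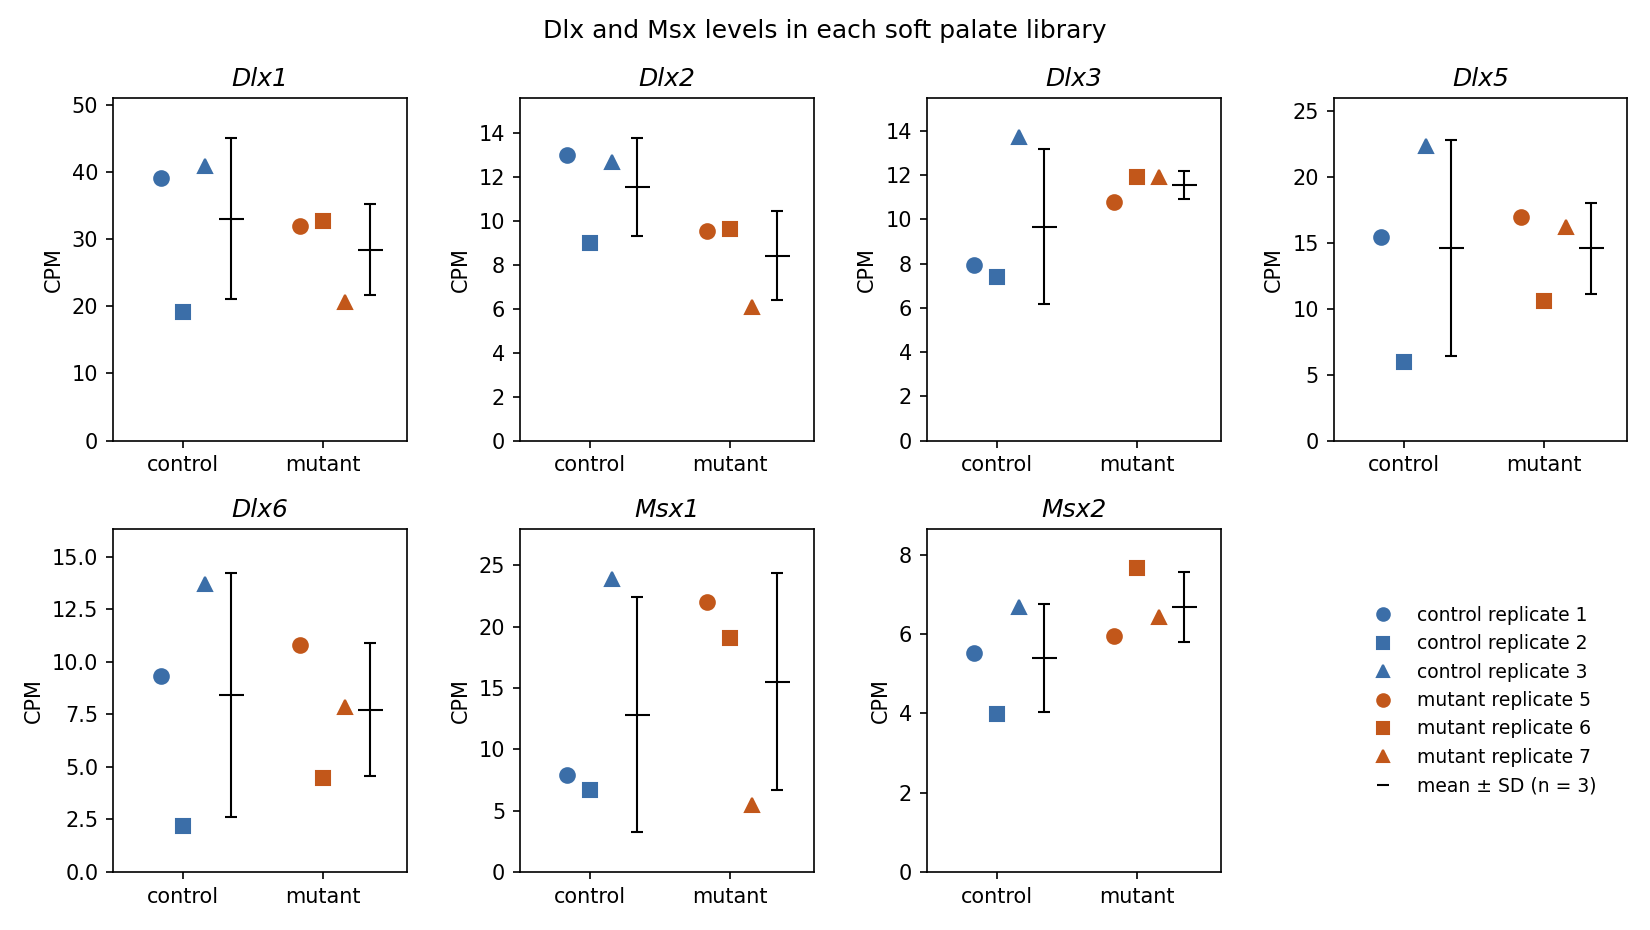
Level of each gene (CPM, vertical axes from 0) in the 3 control libraries (blue) and the 3 mutant libraries (orange); symbols mark replicates and the bar beside them is the mean ± SD. Controls and mutants overlap in all 7 panels, and control replicate 2 (blue square) is the lowest control in each.

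Dlx1 and Dlx2, the pair active along the whole arch, had the lower estimates of the set. Dlx1 was at 39.1, 19.2 and 40.8 CPM in controls 1, 2 and 3 and at 32.0, 32.6 and 20.7 CPM in mutants 5, 6 and 7. Control 2 and mutant 7 were low and the other 4 libraries high, so the groups overlapped. The means were 33.1 ± 12.0 and 28.4 ± 6.66 CPM (SD, n = 3 per group), a log2 change of -0.17 ± 0.28 (SE) with a 95% interval of -0.81 to 0.48 (limma adjusted p = 0.773).

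Dlx2 was at 13.0, 8.98 and 12.7 CPM in controls and at 9.53, 9.66 and 6.10 CPM in mutants. The 2 highest values were controls 1 and 3 and the lowest was mutant 7, but control 2 lay below mutants 5 and 6. The means were 11.6 ± 2.25 and 8.43 ± 2.02 CPM (SD, n = 3 per group), a log2 change of -0.42 ± 0.21 (SE) with a 95% interval of -0.91 to 0.06 (limma unadjusted p = 0.0807, adjusted p = 0.292). This interval spans folds of 0.532 to 1.05 in CPM + 1, so a fold of CPM + 1 below 0.532 lies outside it. Dlx2 kept a negative estimate whichever library was left out, from -0.58 to -0.23.

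The position of control 2 bears on both genes. Without it the estimate of Dlx1 was -0.50 (limma adjusted p = 0.188) and that of Dlx2 -0.58 (adjusted p = 0.167), the lowest adjusted p of any of the 7 genes in any setting. Leaving out control 3 or mutant 7 instead turned the sign of Dlx1, to 0.02 and 0.04. No setting brought either gene past the threshold.

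Inside a library the pair can be compared without regard to how libraries are scaled. The ratio of Dlx1 to Dlx2 was 3.00, 2.14 and 3.22 in controls and 3.35, 3.37 and 3.40 in mutants. All 3 mutants lay above all 3 controls, and the mutants were nearly equal. The mean log2 ratio was 1.46 ± 0.32 in controls and 1.76 ± 0.01 in mutants (SD), a difference of 0.30 (exact permutation test, two-sided, n = 3 per group, p = 0.1, 0.3 after Benjamini-Hochberg over the 3 ratios tested). With 3 libraries against 3 this test cannot go below 0.10. Without control 2 the difference was 0.12.

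Dlx5 and Dlx6 mark the distal, lower-jaw part of the arch. Dlx5 was at 15.4, 5.99 and 22.3 CPM in controls and at 16.9, 10.6 and 16.2 CPM in mutants. The highest and the lowest of the 6 values were both controls, and all 3 mutants lay between them. Its mean was 14.6 ± 8.18 CPM in controls and 14.6 ± 3.41 CPM in mutants (SD, n = 3 per group), a log2 change of 0.14 ± 0.39 (SE) with a 95% interval of -0.75 to 1.03 (limma adjusted p = 0.866).

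Dlx6 followed the same order within controls, at 9.34, 2.20 and 13.7 CPM, and was at 10.8, 4.49 and 7.84 CPM in mutants. Again the mutants lay within the range of the controls. The means were 8.41 ± 5.80 and 7.69 ± 3.14 CPM (SD, n = 3 per group), a log2 change of 0.08 ± 0.52 (SE) with a 95% interval of -1.11 to 1.26 (limma adjusted p = 0.949). In CPM + 1 these intervals span folds of 0.594 to 2.04 for Dlx5 and of 0.464 to 2.39 for Dlx6. Both are wide enough to hold a clear rise and a clear drop in level. Without control 2 both signs turned, to -0.36 for Dlx5 (limma adjusted p = 0.405) and -0.57 for Dlx6 (adjusted p = 0.338), and without mutant 5 that of Dlx6 was -0.18.

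The ratio of Dlx5 to Dlx6 was 1.65, 2.72 and 1.63 in controls and 1.57, 2.37 and 2.06 in mutants. It was highest in control 2 and in mutant 6, the library of each group with the lowest levels of both genes. The mean log2 ratio was 0.96 ± 0.42 in controls and 0.98 ± 0.30 in mutants (SD), a difference of 0.02 (exact permutation test, two-sided, n = 3 per group, p = 1). Over the 6 libraries the ratio varied by 1.73 times from lowest to highest, while Dlx5 varied by 3.72 times and Dlx6 by 6.22 times.

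Dlx3, which is needed in placenta, skin, tooth and bone, was at 7.92, 7.39 and 13.7 CPM in controls and at 10.8, 11.9 and 11.9 CPM in mutants. Controls 1 and 2 were the lowest libraries and control 3 was the highest, with the 3 mutants between. The means were 9.67 ± 3.50 and 11.5 ± 0.659 CPM (SD, n = 3 per group), a log2 change of 0.28 ± 0.22 (SE) with a 95% interval of -0.22 to 0.77 (limma adjusted p = 0.501). Without control 3 the estimate was 0.53 (limma unadjusted p = 0.0102, adjusted p = 0.176), and without control 2 it was 0.13.

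Msx1, whose loss gives cleft palate, was at 7.92, 6.69 and 23.9 CPM in controls and at 22.0, 19.1 and 5.43 CPM in mutants. Each group held both high and low libraries: control 3 and mutants 5 and 6 were high, and controls 1 and 2 and mutant 7 were low. The means were 12.8 ± 9.60 and 15.5 ± 8.84 CPM (SD, n = 3 per group), a log2 change of 0.27 ± 0.55 (SE) with a 95% interval of -0.98 to 1.51 (limma adjusted p = 0.815). The estimate was 0.80 without control 3 and 0.85 without mutant 7, and it turned to -0.05 without control 2 and to -0.07 without mutant 5. The 2 libraries with high Xist were at opposite ends, since control 3 had the highest Msx1 level and mutant 7 the lowest.

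Msx2, which acts with Msx1 and on its own in the skull vault, was at 5.52, 3.99 and 6.70 CPM in controls and at 5.95, 7.68 and 6.43 CPM in mutants. The 2 lowest libraries were controls and the highest was a mutant, while control 3 lay above mutants 5 and 7. The means were 5.40 ± 1.36 and 6.68 ± 0.893 CPM (SD, n = 3 per group), a log2 change of 0.28 ± 0.21 (SE) with a 95% interval of -0.19 to 0.75 (limma adjusted p = 0.465). Its sign was positive in every setting, from 0.11 without control 2 to 0.42 without control 3.

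The ratio of Msx1 to Msx2 was 1.43, 1.68 and 3.57 in controls and 3.70, 2.49 and 0.85 in mutants. The highest and the lowest ratio were both mutants, and the controls lay between them. The mean log2 ratio was 1.03 ± 0.70 in controls and 0.99 ± 1.10 in mutants (SD), a difference of -0.05 (exact permutation test, two-sided, n = 3 per group, p = 1). From lowest to highest this ratio varied by 4.38 times, beside 1.59 times for Dlx1 to Dlx2.

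**Figure D2:**
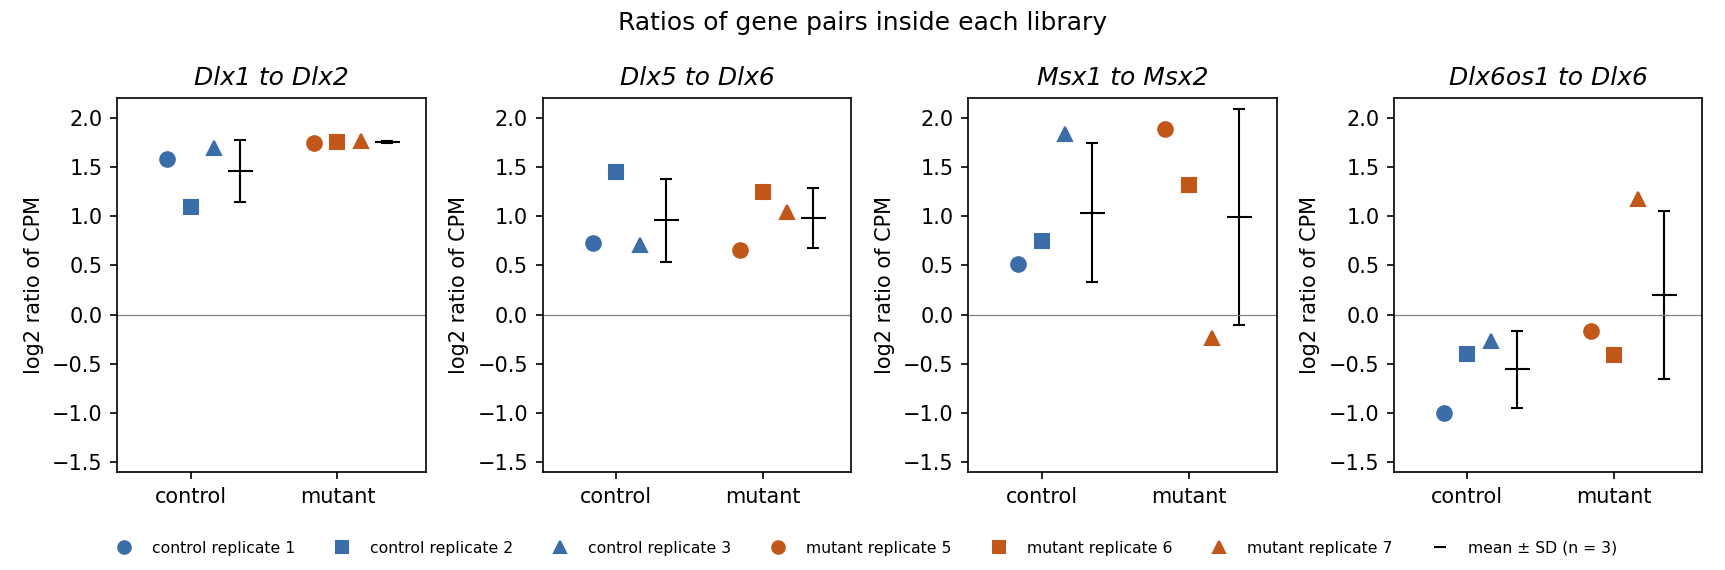
Log2 ratio of 2 genes inside each library, for 3 pairs of Dlx or Msx genes and for the antisense transcript Dlx6os1 against Dlx6; symbols mark replicates and the bar is the mean ± SD. The 3 mutants of the Dlx1 to Dlx2 panel sit close together above the controls, while the Msx1 to Msx2 panel is spread, from a ratio of 0.85 to one of 3.70 in mutants.

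In the estimates and their intervals, the width differs more between genes than the centre does. The standard error was 0.21 for Dlx2 and Msx2 and 0.55 for Msx1. Every interval of the 7 genes included 0, and that of Osr2 did not.

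**Figure D3:**
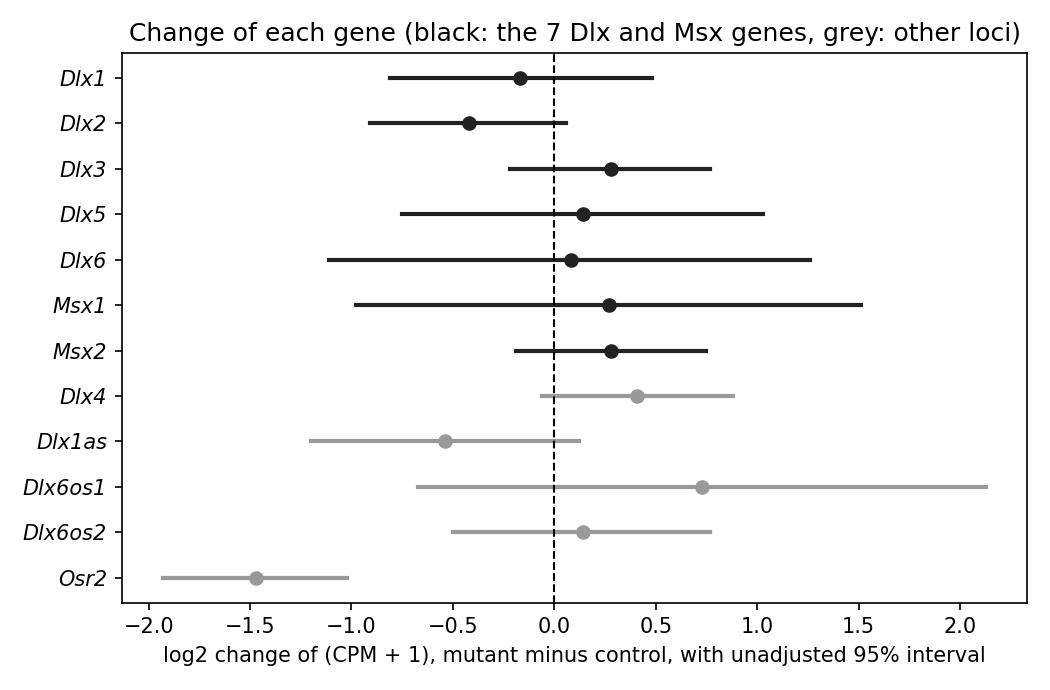
Estimated log2 change of (CPM + 1), mutant minus control, with the unadjusted 95% interval of each gene from limma; black marks the 7 Dlx and Msx genes and grey marks Dlx4, the antisense transcripts and Osr2. Each black interval crosses the dashed line at 0, and the interval of Osr2, centred on -1.47, does not.

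Promoter sequence was taken from RefSeq (GRCm38.p6), where 4 of the 7 genes have an entry: Dlx1, Dlx2, Msx1 and Msx2. The 250 bases before the start are printed for Dlx2, whose level moved with that of its neighbour Dlx1, and for Msx1, whose level did not move with that of Msx2. For Dlx1 and Msx2 all 250 bases lie in exons of longer GENCODE transcripts, so they are not printed. Both strands of the whole 300-base windows, which run 50 bases past the start, were searched for CCAAT, for the homeodomain cores TAATTA and TAATTG, for CTTTGA, the core bound by the TCF and LEF partners of β-catenin, and for GGCGCC. None of these motifs overlaps another in the sequences printed. Capitals mark the matches, and both windows lie on the minus strand.
Dlx2, chr2:71546755-71547004: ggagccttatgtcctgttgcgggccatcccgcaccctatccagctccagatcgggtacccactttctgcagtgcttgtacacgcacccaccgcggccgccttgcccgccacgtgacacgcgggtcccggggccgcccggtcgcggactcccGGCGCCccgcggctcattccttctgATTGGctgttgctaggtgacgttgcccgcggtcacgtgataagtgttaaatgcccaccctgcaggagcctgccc
Msx1, chr5:37824586-37824835: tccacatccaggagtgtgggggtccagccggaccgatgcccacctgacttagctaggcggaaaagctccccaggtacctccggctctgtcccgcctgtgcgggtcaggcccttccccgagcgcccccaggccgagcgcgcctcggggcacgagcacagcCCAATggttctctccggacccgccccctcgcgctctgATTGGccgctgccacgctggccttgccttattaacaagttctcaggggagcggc
Dlx2 held 1 CCAAT on the reverse strand, with its first base at -74 from the start, and 1 GGCGCC at -99. Msx1 held CCAAT at -91 and, on the reverse strand, at -54. Msx2 held CCAAT at -124 and TAATTA at -187, and Dlx1 held none of the 5 motifs. Among all 32851 promoters of this length, 37.4% held CCAAT, 5.29% TAATTA, 8% TAATTG, 16% CTTTGA and 11.9% GGCGCC. The GC content of the 4 windows was between 61% and 70%, beside a median of 52.7% over all promoters. A match describes letters only and is not a binding site.

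Levels of different genes can be compared only per length, and here CPM was divided by the exonic length of each gene in kilobases. In controls Dlx5 had 6.44 ± 3.61 and Dlx1 6.13 ± 2.23 CPM per kilobase (SD, n = 3), the highest of the set. Msx1 (4.14 ± 3.1), Dlx2 (4.05 ± 0.787), Dlx3 (3.71 ± 1.34) and Dlx6 (3.54 ± 2.44 CPM per kilobase) followed. Neighbours in this order differed by less than the larger SD of the pair, and the 4 genes from Msx1 to Dlx6 cannot be ranked. Msx2 was lowest, at 1.65 ± 0.413 CPM per kilobase in controls and 2.04 ± 0.272 in mutants.

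In mutants the order was headed by Dlx5 at 6.43 ± 1.51, Dlx1 at 5.27 ± 1.24 and Msx1 at 5.01 ± 2.86 CPM per kilobase (SD, n = 3). Dlx3 stood at 4.42 ± 0.253, Dlx6 at 3.24 ± 1.32 and Dlx2 at 2.95 ± 0.708 CPM per kilobase. Dlx2 was in place 4 in controls and in place 6 in mutants. Neighbours again differed by less than the larger SD of the pair, except Dlx2 and Msx2. With this exonic length the first 3 places and the last were held by the same genes in both groups. With the length of the longest transcript instead, Msx1 stood above Dlx1 in mutants (8.01 and 6.91 CPM per kilobase) and below it in controls (6.63 and 8.04).

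The spread between libraries of one group was wide for most of the set. Over the 13439 genes with a mean of at least 5 CPM, the median within-group SD of log2(CPM + 1) was 0.16. It was 0.97 for Msx1, 0.90 for Dlx6, 0.68 for Dlx5, 0.49 for Dlx1, 0.32 for Dlx3, 0.31 for Dlx2 and 0.25 for Msx2. The shares of those genes with a smaller SD were 95.1% for Dlx1, 98.2% for Dlx5, 86.3% for Dlx3, 84.9% for Dlx2 and 77% for Msx2. Each gene therefore lay above the median spread, and Msx2 the least. The genes compared were not matched for level, and the part of level in these positions was not tested.

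Counting error was smaller than this spread in most cases. Each value rested on 22 to 525 reads, the fewest for Dlx6 in control 2. For Msx1 the coefficient of variation was 74.8% in controls, where counting alone gives 9.71%, and 57% in mutants, where it gives 8.14%. For Dlx6 it was 69% in controls beside 14.1% from counting. The values were closer for Msx2, at 25.1% in controls beside 13.1% from counting and 13.4% in mutants beside 10.6%. Dlx3 in mutants was the exception, with 5.72% beside 8.07% from counting.

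**Figure D4:**
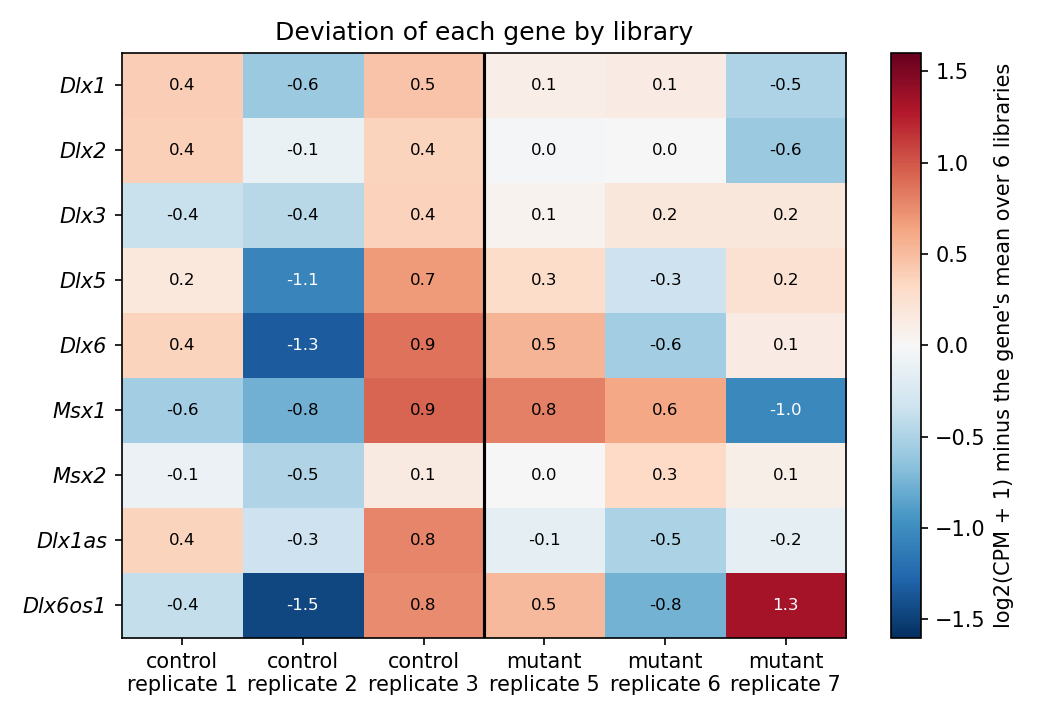
Deviation of each gene in each library from the gene's mean over the 6 libraries, on the log2(CPM + 1) scale, as a colour and a printed value; the line separates controls from mutants. The column of control replicate 2 is below 0 for all 9 genes, and mutant replicate 7 is lowest for Msx1 and highest for Dlx6os1.

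Control 2 was the lowest control for all 7 genes, beside 33% of the 13439 genes at 5 CPM or more. Mutant 7 was the lowest mutant for 3 of the 7 genes (Dlx1, Dlx2 and Msx1), beside 31.5%. Control 2 was also the library with the fewest counted reads, and mutant 7 the one with the most, and the part of depth in these positions was not tested. In control 2 the summed level of 10 osteoblast markers was 5451.9 CPM, between the 4424.6 and 6303.4 CPM of the other controls, and that of 12 epithelium markers was 2291.4 CPM, the highest of the controls. The 10 muscle markers summed to 6691.6 CPM in control 2, beside 14060.8 and 9981.3 CPM in controls 1 and 3, and 10 markers of forebrain inhibitory neurons to 17.6 CPM, beside 41.9 and 21.2 CPM, so both were lowest in that library as the 7 genes were. The part of these cells in the levels of the 7 genes was not tested. In bulk tissue fewer cells that express a gene and less RNA per cell cannot be told apart.

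Profiles over the 6 libraries were compared by the root mean square difference of log2(CPM + 1), each gene centred on its own mean, so that 0 means an identical course. Among the 21 pairs of the set, Dlx3 with Msx2 (0.16), Dlx5 with Dlx6 (0.21) and Dlx1 with Dlx2 (0.23) were nearest. The most distant was Msx1 with Dlx6 (0.81), and Msx1 with Msx2 was at 0.70. Dlx3 and Msx2 lie on different chromosomes, while the other near pairs are the linked ones. A small distance is easier to reach for genes that vary little: Msx2 itself varied by 0.25 and Dlx6 by 0.74 about their means.

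Among 11773 genes searched, the nearest to Dlx5 was Dlx6, and the nearest to Dlx6 was Dlx5. Next to Dlx5 came Slc26a7, an anion exchanger (0.25), and Tceal5 (0.29). Next to Dlx6 came Aldh1a2, which makes retinoic acid (0.24), and Slc26a7 (0.34). Aldh1a2 was at 54.0, 18.6 and 64.2 CPM in controls and at 59.7, 27.1 and 31.0 CPM in mutants, low in control 2 as Dlx6 was.

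The profile nearest to Dlx2 was that of Wif1, a secreted inhibitor of Wnt ligands, at a distance of 0.05. Wif1 was at 10.2, 7.29 and 9.27 CPM in controls and at 7.66, 7.83 and 4.71 CPM in mutants. Capn6, a calpain relative without protease activity, and Gng10, a G protein subunit, both followed at 0.10. Nearest to Dlx1 were Shisa9 and Gucy1b1, a subunit of soluble guanylate cyclase (both 0.15), and Cycs, cytochrome c (0.16).

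Nearest to Msx1 were Dock3, an exchange factor for a small GTPase, at 0.44, and Dsg1b, a desmosomal cadherin, and Phospho1, a phosphatase of mineralising tissue, both at 0.47. These are the largest nearest distances of the 7 genes, so none of the genes searched followed the course of Msx1 as closely as others followed the remaining 6. Nearest to Dlx3 were Rbis (0.07) and Snrnp27, a splicing protein (0.11). Nearest to Msx2 were Akip1, Sbds, a ribosome assembly factor, and Polr3gl, an RNA polymerase III subunit, all at 0.06. The 6 points share their libraries with the genes they were compared with, and these distances are descriptions.

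Dlx4 and 3 antisense transcripts of these loci were also measured. Dlx4, the partner of Dlx3, was at 0.320, 0.299 and 0.784 CPM in controls and at 1.06, 0.684 and 1.06 CPM in mutants, which rests on 3 to 16 reads a library. Control 3 lay above mutant 6, so the groups overlapped, and the log2 change was 0.41 ± 0.21 (SE, limma adjusted p = 0.293). Msx3 was not analysed here.

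Antisense transcripts lie across Dlx1 and Dlx6, and end before their partners Dlx2 and Dlx5. Dlx6os1, the non-coding transcript also known as Evf2, spans Dlx6 on the opposite strand (chr6:6820189-6871592). It was at 4.64, 1.68 and 11.4 CPM in controls and at 9.53, 3.35 and 17.6 CPM in mutants, lowest in control 2 and mutant 6 as Dlx5 and Dlx6 were. The log2 change was 0.73 ± 0.62 (SE) with a 95% interval of -0.67 to 2.13 (limma adjusted p = 0.528).

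The ratio of Dlx6os1 to Dlx6 was 0.50, 0.76 and 0.83 in controls and 0.89, 0.75 and 2.25 in mutants. It was highest in mutant 7, and the other 5 libraries lay between 0.50 and 0.89. This ratio was chosen after its values were seen and has no test. In forebrain, Dlx1, Dlx2, Dlx5, Dlx6 and Dlx6os1 are active in precursors of inhibitory neurons, and 10 markers of those cells were looked at beside it. They summed to 43.1 CPM in mutant 7, the highest of the 6 libraries, and to 12.6 CPM in mutant 6, the lowest. Slc32a1, the vesicular GABA transporter, was at 0 in controls 2 and 3. Over all controls the 10 markers summed to 17.6 to 41.9 CPM and over all mutants to 12.6 to 43.1 CPM, and the part of such cells in these values was not tested.

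Dlx1as lies on the strand opposite Dlx1 (chr2:71516454-71537891). It was at 2.33, 1.05 and 3.46 CPM in controls and at 1.34, 0.819 and 1.33 CPM in mutants. Its log2 change was -0.54 ± 0.29 (SE, limma adjusted p = 0.322), and control 2 lay below mutants 5 and 7. Dlx6os2, which lies across Dlx6, was at 0.738, 0.0998 and 1.25 CPM in controls and at 1.14, 0.608 and 0.668 CPM in mutants, with a log2 change of 0.14 ± 0.28 (SE, limma adjusted p = 0.811).

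Some of these transcripts share bases with the genes they face. Dlx1as and Dlx1 share 335 exonic bases, 6.21% of those of Dlx1, and Dlx6os2 and Dlx6 share 104, 4.38% of those of Dlx6. Converted to reads, 32 of the 42 values of the 7 genes were whole within 0.02 of a read, and the 10 that were not belonged to Dlx1 (0 of 6 whole) and Dlx6 (2 of 6 whole). The sources used here do not give the strand setting of the counting, so reads of a gene and its antisense partner cannot be told apart over those bases.

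The genes of the pathways around this set were followed from fixed lists. Of 9 measured genes of the endothelin signal, which switches on Dlx5 and Dlx6 in the lower arch, 0 passed the test and 1 was lower at an unadjusted p below 0.05. The median log2 change of the list was -0.09. Edn1, the ligand, was at 0.800 to 1.32 CPM in controls and at 0.862 to 1.87 CPM in mutants. Ednra, its receptor on neural crest cells, was at 52.5 ± 17.1 CPM in controls and 37.9 ± 1.81 CPM in mutants (SD, n = 3 per group, limma adjusted p = 0.288). The 3 genes of the list with the smallest p were Furin, Ece1 and Mef2c. Furin, a protease that processes the endothelin precursor, was at 118.3 ± 22.8 and 93.5 ± 9.38 CPM (adjusted p = 0.225), and Ece1, the enzyme that cuts it to its active form, at 187.2 ± 43.9 and 250.2 ± 58.0 CPM (adjusted p = 0.259). Mef2c, a transcription factor activated below the receptor, was at 265.3 ± 100.7 and 177.7 ± 21.8 CPM (adjusted p = 0.273). In controls 1, 2 and 3 Mef2c was at 367.0, 165.5 and 263.5 CPM, the same order as the summed muscle markers. In mutants the order was not the same, and the part of muscle in the level of Mef2c was not tested. Edn1 and Ednra are given for their place in the pathway and were chosen after their values were seen.

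Among 28 measured jaw and palate patterning factors 1, Osr2, whose locus carries Cre in the mutants, passed the test and was lower. At an unadjusted p below 0.05, 2 were higher and 6 lower, and the median log2 change was -0.12. Barx1, a homeobox factor of tooth, jaw and stomach mesenchyme, was at 138.3, 103.1 and 121.4 CPM in controls and at 74.0, 105.1 and 73.1 CPM in mutants (limma adjusted p = 0.122). Hand2, the distal arch factor below Dlx5 and Dlx6, was at 15.9, 5.39 and 24.8 CPM in controls and at 31.9, 4.11 and 10.1 CPM in mutants. It shared with Dlx5 and Dlx6 the lowest control, replicate 2, and the lowest mutant, replicate 6. Barx1 and Hand2 were chosen after their values were seen.

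The BMP pathway, which induces Msx genes, gave 0 called of 26 measured genes, with 0 higher and 6 lower at an unadjusted p below 0.05 and a median log2 change of -0.12. Nog, which encodes the secreted BMP antagonist Noggin, was at 8.64, 6.49 and 5.37 CPM in controls and at 4.24, 4.26 and 3.11 CPM in mutants, without overlap, a log2 change of -0.67 ± 0.21 (SE, limma adjusted p = 0.129). Id3, a direct BMP target, had one of -0.36 ± 0.10 (SE, adjusted p = 0.11). Neither passed the test. Without control 2 the number called in the list was 1.

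Wnt feedback targets, which read out the deleted pathway, gave 0 called of 12 measured genes, with 0 higher and 4 lower at an unadjusted p below 0.05 and a median log2 change of -0.03. The 3 with the smallest p were Nkd1, at -0.64 ± 0.11 (SE, limma adjusted p = 0.0513), Axin2, at -0.53 ± 0.15 (adjusted p = 0.104), and Nkd2, at -0.55 ± 0.15 (adjusted p = 0.104). Each encodes an inhibitor in the Wnt pathway's own feedback. The count of 0 became 1 when only genes with a mean of at least 1 CPM were tested and 1 with a robust prior variance. Among 14 FGF and Hedgehog genes of the palate, 0 were called, 1 was higher and 8 lower at an unadjusted p below 0.05, and the median log2 change was -0.36. The count of 0 became 1 with the filter at 1 CPM, 1 with libraries scaled to the median ratio, 2 with a robust prior variance and 3 without control 2. Spry1 and Spry4, inhibitors induced by FGF signalling, had estimates of -0.61 ± 0.10 and -0.70 ± 0.13 (SE, adjusted p = 0.051 and 0.0552), and Shh, the epithelial Hedgehog ligand, one of -1.15 ± 0.22 (adjusted p = 0.0613). The median of all genes at 5 CPM or more was -0.02.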

How the data were processed

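Soft palate RNA was sequenced in 3 control and 3 mutant libraries. STAR and the mm10 build are named, without a version, per the submitters' processing notes. The deposited values are CPM with a constant of 0.0001 added by the authors, as found from the values; for the counting step, annotation and strand, nothing is stated (not given in the sources used here). The constant was removed, and 0 columns of per-sample values were left unused. The value of 1 read, found from the steps between low values, gave 10018605 to 15089287 counted reads per library. Because 63.6 to 68.1% of low values were whole within 0.02 of a read, reads were not recovered and no count model was run. Limits from depth cover counting error only.

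Mutant and control were compared on log2(CPM + 1) by limma 3.58.1 (R 4.3.3) using an intensity trend, Benjamini-Hochberg adjustment over all 21938 genes, a threshold of 0.05 and no filter on low values; the scale understates changes of low genes. The test was checked on simulated data. No batch is labelled. The 7 genes and all lists were chosen with earlier results of these data known. Genes named are the 7, other Dlx and Msx loci, called genes or the 3 with the smallest p of each list, the 3 nearest profiles, Ctnnb1 and Osr2; others are marked, and some that the rule names, with 1 sequence, are not reported here. Nearest profiles were sought among genes with a mean of at least 5 CPM, passing over pseudogenes and model identifiers. Alternatives changed the pseudocount, filter, scaling, prior variance, libraries and length. Positions are from GENCODE vM21, promoters from RefSeq; Dlx3, Dlx5 and Dlx6 have no promoter entry in that table.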

Additional observations from a re-analysis of the deposited data

How the results depend on the processing

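Of the 7 genes, 0 passed the threshold in any of 12 alternative settings, with a lowest adjusted p of 0.167 (limma). Of 84 estimates, 77 kept their sign and 7 turned, all on leaving out 1 library: Dlx1 ranged from -0.50 to 0.04 over the libraries left out, Dlx5 from -0.36 to 0.51, Dlx6 from -0.57 to 0.53 and Msx1 from -0.07 to 0.85. The number of genes called among all 21938 moved from 105 to 0 without the trend (4516 at an unadjusted p below 0.05), to 174 with a robust prior variance, to 0 with sex read from Xist as a covariate (4356 at an unadjusted p below 0.05), which was chosen after seeing the data, and to between 0 and 452 on leaving out 1 library, the highest without control 2 and 0 without control 1, control 3, mutant 5 or mutant 6 (3806 to 4100 at an unadjusted p below 0.05); without mutant 7 it was 2. The difference in log2 ratio ranged from -0.11 to 0.27 for Dlx5 to Dlx6, from -0.50 to 0.57 for Msx1 to Msx2 and from 0.12 to 0.41 for Dlx1 to Dlx2. With the length of the longest transcript in place of all exons, levels in CPM per kilobase moved to 10.2 for Dlx5 in both controls and mutants, to 8.04 and 6.91 for Dlx1, 6.63 and 8.01 for Msx1, and 2.2 and 2.73 for Msx2 in controls and mutants, since the length is shorter. With that length Msx1 stood above Dlx1 in mutants and below it in controls. The causes of the other moves were not tested. No paired analysis was possible because the groups share no replicate numbers. With 3 libraries a group, a gene as variable as Msx1 has an interval of more than 2 on the log2 scale.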
